A study of Mus musculus with 19 samples.

Results

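Hippocampal RNA libraries from 19 mice were selected on their level of Npas4 within each of 4 groups of genotype and sex: the 2 highest and the 2 lowest of each group, chosen by that value alone, were compared. This gave 8 high-Npas4 and 8 low-Npas4 libraries, 16 of the 19, and left out the middle library of the 3 groups with 5 animals. Npas4 was read as CPM, the count scaled to the library's total count. All animals were 4 months old and carried 1 copy of the 5xFAD transgenes (5xFADHEMI), which drive mutant human amyloid precursor protein and presenilin 1 from the neuronal Thy1 promoter. Of the 4 groups, 5xFAD females (n = 5) and 5xFAD males (n = 5) carried the transgenes alone, while knock-in females (n = 4) and knock-in males (n = 5) were also homozygous for a clusterin knock-in that the labels call CLUh2kbKIHO. Each library came from part of the pulverised left hippocampus of 1 animal that was anaesthetised with CO2 and perfused with saline. Library numbers of the knock-in and the 5xFAD animals form separate ranges, so a batch that follows them cannot be told apart from genotype. No animal was stimulated, trained or kept in a labelled state of activity, so "high" and "low" are ranks on 1 gene and not a treatment.

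Npas4 encodes a transcription factor of neurons that is induced within minutes of calcium entry through glutamate receptors and voltage-gated channels. It belongs to the immediate early genes, a set that also holds the Fos, Egr and Nr4a families and whose transcripts are short-lived. Their products switch on later genes that act at synapses (Arc, Homer1, Nptx2), are secreted (Bdnf, Inhba), or shut the signal down again (Dusp1, Sik1). In the resting hippocampus such transcripts are carried by a small share of neurons.

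Npas4 itself chose the libraries, so its levels are a description without a test. In 5xFAD females the high libraries stood at 45.4 and 25.5 CPM, the middle one at 23.5 and the low ones at 21.2 and 18.05. In 5xFAD males the high libraries stood at 23.4 and 23.1 CPM, the middle one at 17.3 and the low ones at 16.6 and 13.6. In knock-in males the high libraries stood at 23.8 and 23.6 CPM, the middle one at 21.7 and the low ones at 12.2 and 7.11. The middle knock-in male was thus close to the high pair. In knock-in females the high libraries, at 14.1 and 13.3 CPM, almost met the low ones, at 13.0 and 10.1 CPM, and the ratio of the class means was 1.19, against 1.54 to 2.45 in the other groups. The counts behind these values ran from 139 to 809. The 95% Poisson intervals of the lower high and the upper low knock-in female overlapped (11.8 to 15.04 against 11.6 to 14.5 CPM, counting error only), so results are also given without the knock-in females.

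**Figure D1:**
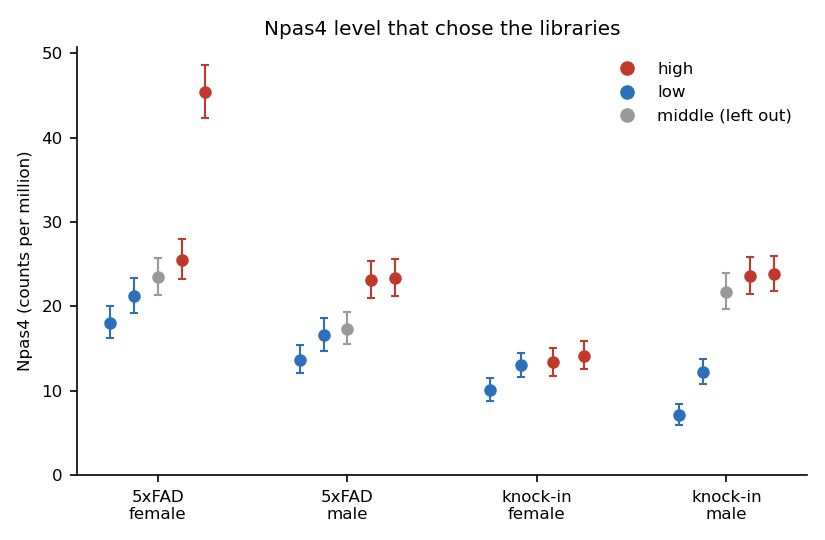
Npas4 level (CPM) in each of the 19 libraries, by group, with exact 95% Poisson intervals. High libraries are red, low ones blue and the middle ones left out are grey. The high and low knock-in females lie between 10.1 and 14.1 CPM and almost meet.

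Total counts were 17.8 to 21.3 M in high and 17.28 to 25.2 M in low libraries (M stands for mega), a mean difference of -0.869 M (exact two-sided permutation of the classes within groups, p = 0.330, 0.462 after adjustment over 7 values so tested). Neuronal markers were abundant in both classes: the 13 pan-neuronal genes summed to 9450 to 11270 CPM in high and 8967 to 11012 CPM in low libraries. The 8 nuclear noncoding RNAs had mean log2 levels of 6.24 to 8.38 in high and 6.16 to 8.25 in low libraries. Within groups the classes were less even. The median log2 difference of these RNAs, high minus low, was 0.30 in 5xFAD females (8 of 8 above 0) and -1.06 in 5xFAD males (0 of 8). It was -0.12 in knock-in females (2 of 8) and 0.66 in knock-in males (7 of 8). The summed level of choroid plexus genes varied far more between libraries, from 128.01 to 4629 CPM in high and from 37.2 to 11654 CPM in low ones.

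Genes that go with Npas4 were sought over all 17915 genes with enough counts, with the group as a block (edgeR quasi-likelihood test, Benjamini-Hochberg adjustment over all genes, threshold 0.05). At this threshold 4 genes rose in high-Npas4 libraries, 0.0223% of those tested, and 0 fell (0.0%). Fosb, a Fos-family transcription factor of recently active neurons, and Map3k9, a kinase upstream of the JNK pathway, were 2 of them. D130043K22Rik and B230209E15Rik, named by clone in the annotation and therefore chosen here after their values were seen, were the others. At an unadjusted p under 0.05, 1281 genes were higher (7.15%) and 1114 lower (6.22%). The number called depends on the tool: DESeq2 called 448 genes, all 4 edgeR genes among them, of which 301 were higher (1.86% of the 16178 to which it gave an adjusted p), and limma-voom called 0. It also depends on single libraries: 12 of 16 runs without 1 library called 0 genes, while 173 genes were called without 5xFAD female 1, 171 without 5xFAD male 8, 53 without 5xFAD male 6 and 6 without knock-in male 9. No gene was called without the knock-in females.

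Fosb read 32.4 and 22.8 CPM (here and below with TMM scaling factors) in the high 5xFAD females against 14.5 and 12.6 in the low ones. In 5xFAD males it read 24.2 and 23.5 CPM in high against 11.8 and 10.8 in low libraries. In knock-in females the values were 19.4 and 15.2 against 14.8 and 11.5 CPM, and in knock-in males 18.9 and 9.73 against 7.53 and 7.51 CPM. Both high libraries therefore lay above both low ones in all 4 groups, although the classes overlap across groups. The share of all genes that separate in this way, here and below, was not counted. The difference was 0.86 on the log2 scale (SE 0.14, edgeR adjusted p = 0.0498), a 1.81-fold rise from 11.4 ± 2.75 to 20.8 ± 6.73 CPM (SD, n = 8 each). Without the knock-in females it was larger, at 1.01, but had an adjusted p of 0.177 with edgeR.

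Map3k9 read 34.8 and 21.6 against 19.9 and 15.02 CPM in 5xFAD females and 25.01 and 21.9 against 15.1 and 13.5 CPM in 5xFAD males. In knock-in animals it read 24.99 and 16.6 against 13.3 and 10.7 CPM in females and 21.6 and 14.3 against 9.03 and 8.34 CPM in males. Again both high libraries lay above both low ones in every group. The log2 difference was 0.81 (SE 0.13, edgeR adjusted p = 0.0457), and 0.82 without the knock-in females (edgeR adjusted p = 0.470). The left-out middle knock-in male, whose Npas4 was near the high pair, had 32.9 CPM of Map3k9, above all knock-in males that entered the comparison. D130043K22Rik rose by 0.46 (SE 0.07, edgeR adjusted p = 0.0457) from a median of 25.05 to 36.0 CPM, with high above low in all 4 groups. B230209E15Rik rose by 0.68 (SE 0.11, edgeR adjusted p = 0.0457) from a median of 12.1 to 20.8 CPM, and its classes met only in 5xFAD males, where low male 6 had 18.8 CPM against 18.2 CPM in high male 8.

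The activity-regulated transcription factors form the list closest to Npas4 in function. Of 25 listed genes 24 could be tested, since Fosl1 had too few counts, and 19 lay above and 5 below 0. Their median log2 difference was 0.28, against -0.01 over all genes. Only Fosb passed the adjusted test, while 10 members were higher and 0 lower at an unadjusted p under 0.05, beside the 7.15% and 6.22% of all genes. The means of 6 members (Fosb, Egr2, Fos, Fosl2, Btg2 and Nr4a3) were higher in all 4 groups, as were those of 9.88% of all genes, and no member was lower in all 4, as 11.4% of all genes were. DESeq2 called Fosb, Egr2, Fos and Fosl2 higher, beside 1.86% of the 16178 genes to which it gave an adjusted p.

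Egr2, a zinc finger factor induced by strong synaptic input, ranged from 5.01 to 16.97 CPM (median 11.3) in high and from 3.30 to 8.25 CPM (median 6.15) in low libraries. Its difference was 0.89 (SE 0.22, edgeR adjusted p = 0.0947, DESeq2 adjusted p = 0.00661), and high lay above low in every group but the knock-in females, where high female 1 had the lowest value of the 4 animals. Fos, the partner of Jun in the AP-1 factor, ranged from 26.4 to 53.5 CPM (median 41.2) in high and from 15.8 to 37.0 CPM (median 25.8) in low libraries. Its difference was 0.67 (SE 0.17, edgeR adjusted p = 0.0991, DESeq2 adjusted p = 0.00704), with both high libraries above both low ones in all 4 groups. The classes of Fos nonetheless overlap across groups, since the low 5xFAD male 6 at 37.0 CPM exceeded the high knock-in male 9 at 26.4 CPM.

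The other members showed smaller or less even differences. Fosl2, a Fos relative that persists longer, differed by 0.40 (edgeR adjusted p = 0.153), and Junb, an AP-1 partner, by 0.46 (edgeR adjusted p = 0.255). Btg2, an antiproliferative factor and early target of neuronal activity, differed by 0.31 (edgeR adjusted p = 0.180), Csrnp1 by 0.39 (edgeR adjusted p = 0.236) and Egr4 by 0.41 (edgeR adjusted p = 0.321). The nuclear receptor Nr4a1 stood at a median of 112 CPM in high and 77.4 CPM in low libraries (difference 0.51, edgeR adjusted p = 0.332), and Nr4a3 at 97.7 against 81.9 CPM (0.25, edgeR adjusted p = 0.278). Egr1, the most widely used activity marker of this family, ranged from 34.7 to 112 CPM in high and from 24.2 to 67.5 CPM in low libraries (0.56, SE 0.26, edgeR adjusted p = 0.381). Values for Maff (0.36), Klf4 (0.30), Egr3 (0.22), Ier2 (0.19), Nfil3 (0.11), Klf10 (0.07), Ier5 (0.06) and Bhlhe40 (0.05) were above 0, and those for Atf3 (-0.02), Jun (-0.04), Crem (-0.06), Jund (-0.17) and Nr4a2 (-0.18) below it, all with an edgeR adjusted p of at least 0.458. Among the AP-1 partners of Fos, Jun and Jund thus lay below 0 and Junb (0.46) above it.

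**Figure D2:**
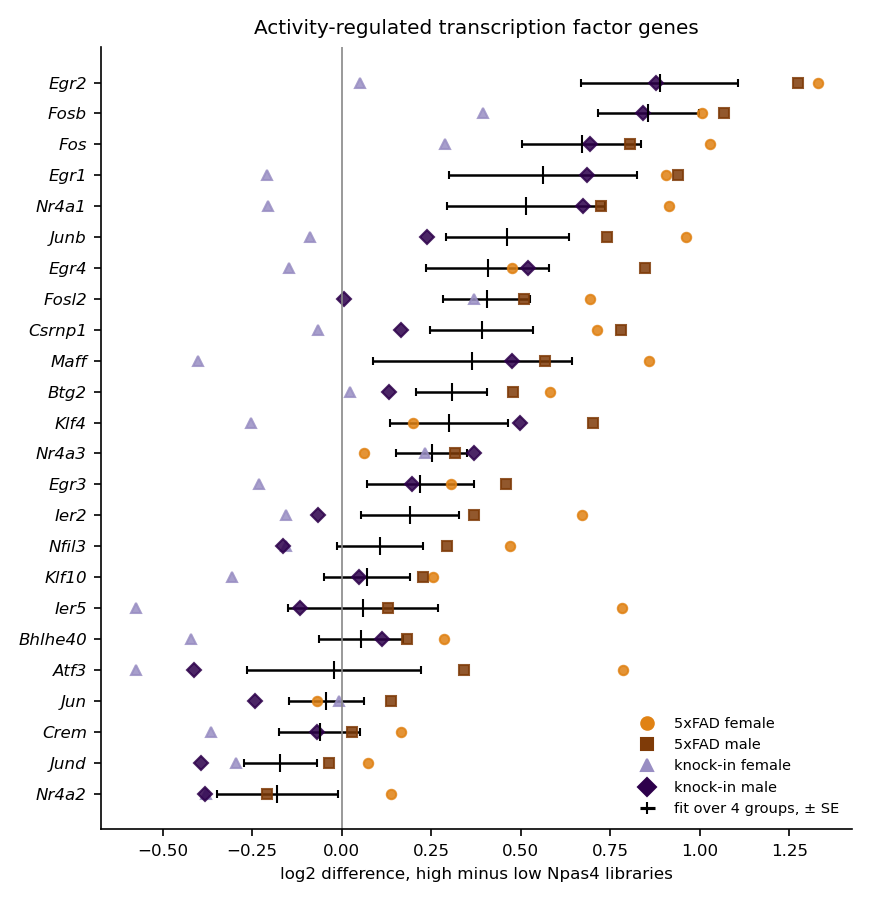
Log2 difference (high minus low Npas4 libraries) of the 24 activity-regulated transcription factor genes. Coloured symbols are the 4 groups and black bars the fit over all groups with its standard error. Most 5xFAD symbols lie to the right of 0 and most knock-in female symbols to the left.

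These genes did not follow Npas4 evenly across the groups. Their median difference was 0.63 in 5xFAD females, where 23 of 24 lay above 0, and 0.47 in 5xFAD males (22 of 24). It was 0.15 in knock-in males (16 of 24) and -0.18 in knock-in females (6 of 24). Whether the groups differ was not tested for the list, and no gene passed the test of a difference between genotypes given further on. Without the knock-in females the list's median was 0.38, and over the 16 runs without 1 library it stayed between 0.21 and 0.33. In knock-in females most of the other activity genes thus lay below 0, which goes against a name of high activity, and the libraries are called by their Npas4 rank throughout.

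**Figure D3:**
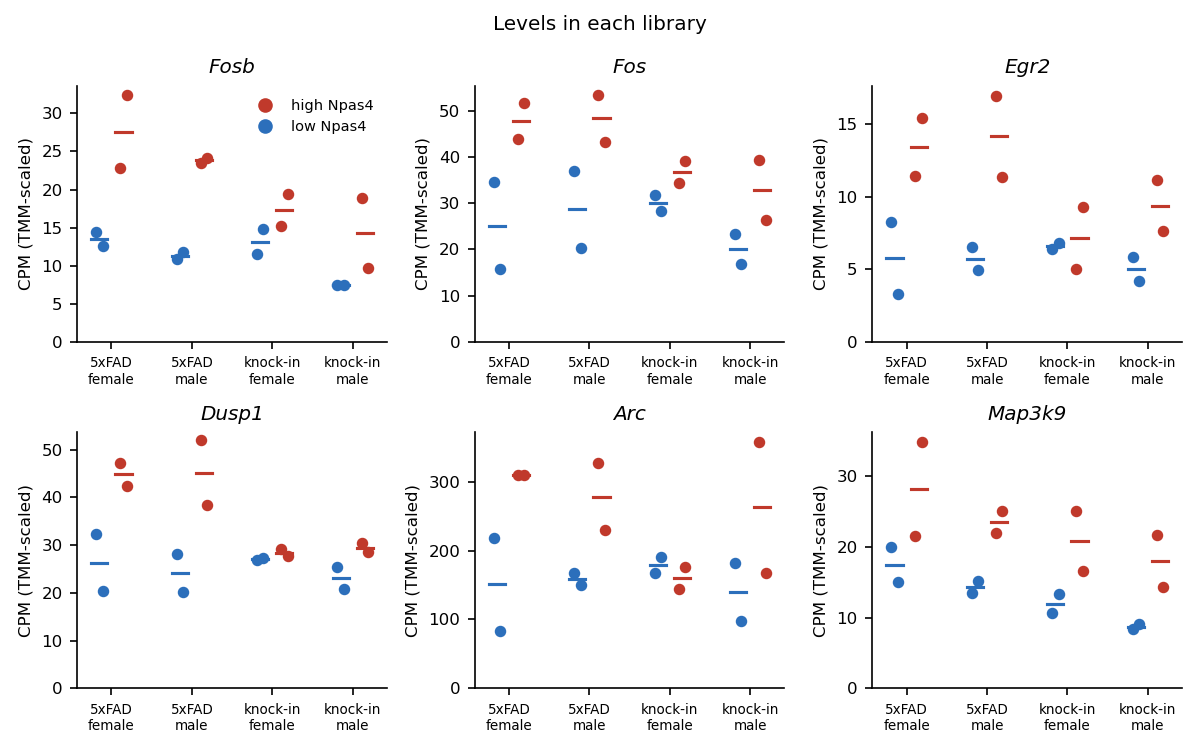
Level (CPM with TMM factors) of Fosb, Fos, Egr2, Dusp1, Arc and Map3k9 in each of the 16 libraries, by group, with high libraries in red, low ones in blue and bars at the mean of each pair. Fosb, Fos, Dusp1 and Map3k9 show no overlap of the classes within any group, while Arc is not higher in the high knock-in females.

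The promoters of these genes are shown because most members hold a short motif there that links them to calcium signals. The factor CREB, which is phosphorylated after calcium entry, binds the cAMP response element TGACGTCA and its core TGACG. Both were searched on both strands of the 250 bases before each RefSeq start (build GRCm38.p6), together with the serum response element core (the CArG box) and the AP-1 site TGACTCA. A full element also counts as a core match on each strand. The RefSeq promoter set used here held 18 of the 24 tested transcription factor genes, without Egr1, Egr3, Ier2, Klf10, Crem and Bhlhe40. A core match was in 14 of these 18 (77.8%), against 19.8% of all 27025 genes in the set, tested here or not. The full element was in 2 (11.1%), against 1.77% of all genes, the CArG box in 1 (5.56% against 1.62%) and the AP-1 site in 1 (5.56% against 5.16%). Fosb and Fos, Btg2 with a full element, and Dusp1 of the feedback genes are printed 5′ to 3′ on the gene's strand, with matches on either strand in capitals.
Fosb promoter, chr7:19310046-19310295, minus strand: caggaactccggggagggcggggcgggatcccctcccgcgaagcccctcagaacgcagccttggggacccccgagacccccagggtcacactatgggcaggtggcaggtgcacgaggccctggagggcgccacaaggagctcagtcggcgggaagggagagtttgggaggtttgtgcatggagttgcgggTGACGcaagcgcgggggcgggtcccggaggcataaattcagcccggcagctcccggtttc
Fos promoter, chr12:85473640-85473889, plus strand: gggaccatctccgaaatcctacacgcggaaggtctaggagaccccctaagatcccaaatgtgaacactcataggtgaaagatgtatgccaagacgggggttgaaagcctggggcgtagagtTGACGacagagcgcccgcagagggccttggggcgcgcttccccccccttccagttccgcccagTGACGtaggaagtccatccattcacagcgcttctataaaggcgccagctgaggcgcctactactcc
Btg2 promoter, chr1:134079156-134079405, minus strand: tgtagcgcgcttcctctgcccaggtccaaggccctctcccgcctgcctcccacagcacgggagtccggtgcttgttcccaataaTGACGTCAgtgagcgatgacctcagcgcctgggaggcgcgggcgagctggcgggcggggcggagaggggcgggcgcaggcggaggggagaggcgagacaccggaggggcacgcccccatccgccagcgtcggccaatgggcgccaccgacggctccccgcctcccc
Dusp1 promoter, chr17:26508473-26508722, minus strand: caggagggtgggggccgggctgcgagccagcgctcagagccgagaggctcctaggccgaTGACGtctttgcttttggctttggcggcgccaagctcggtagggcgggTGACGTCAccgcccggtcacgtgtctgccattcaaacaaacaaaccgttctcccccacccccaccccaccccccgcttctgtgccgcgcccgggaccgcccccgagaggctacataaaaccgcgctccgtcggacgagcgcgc

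The 250 bases of Fosb hold 1 core match and those of Fos hold 2, while Btg2 and Dusp1 hold 1 full element each. A motif match is a property of the sequence, and the data hold no measure of binding. The core was also frequent in the other activity lists, in 60% of 15 synaptic effector promoters, 66.7% of 12 secreted factor promoters and 40% of 15 feedback gene promoters, lists with lower medians than the transcription factors.

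Feedback regulators, which end the signal that induces the early genes, came next. Their 20 members had a median of 0.15, with 14 above 0. None passed the adjusted test, and 8 were higher and 0 lower at an unadjusted p under 0.05 (all genes 7.15% and 6.22%). The median was 0.07 to 0.21 over the runs without 1 library, with its lowest value without knock-in male 6. Dusp1, a phosphatase of MAP kinases, ranged from 27.6 to 52.0 CPM (median 34.3) in high and from 20.1 to 32.3 CPM (median 26.2) in low libraries. Both high libraries lay above both low ones in all 4 groups, but by 0.80 and 0.91 in 5xFAD females and males and by only 0.07 and 0.36 in knock-in females and males. Part of the Dusp1 locus overlaps Ergic1 on the other strand, and the strand setting of the counts is not given. Over all groups the Dusp1 difference was 0.53 (SE 0.13, edgeR adjusted p = 0.0947, DESeq2 adjusted p = 0.0106). Per1, a clock gene with a CREB-driven early response, stood at a median of 81.0 against 62.8 CPM (0.33, edgeR adjusted p = 0.159). Gadd45b, which takes part in DNA demethylation, stood at 15.6 against 11.7 CPM (0.46, edgeR adjusted p = 0.170). Sik1, a kinase that restrains CREB coactivators, stood at 19.5 against 14.8 CPM (0.45, edgeR adjusted p = 0.195).

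Synaptic effectors showed no call among 20 members (median 0.10, 12 above 0), with 4 higher and 1 lower at an unadjusted p under 0.05 (all genes 7.15% and 6.22%). Their median was 0.05 to 0.15 over the runs without 1 library, and lowest without 5xFAD male 9. Arc, which drives removal of AMPA receptors, read 310.3 and 309.7 CPM in the high against 219 and 83.9 CPM in the low 5xFAD females, and 327 and 229 against 168 and 150.5 CPM in 5xFAD males. In knock-in animals the classes overlapped, with 358 and 168 against 182 and 97.9 CPM in males and 177 and 144.5 against 191 and 168 CPM in females. The fit over all groups gave 0.65 for Arc (SE 0.24, edgeR adjusted p = 0.269). Homer1, a postsynaptic scaffold whose short form is activity-induced, ranged from 107 to 234 CPM in high and from 99.6 to 130 CPM in low libraries (0.40, edgeR adjusted p = 0.183). Nptx2, which clusters AMPA receptors, had a median of 34.9 against 24.9 CPM (0.47, edgeR adjusted p = 0.212). Amigo3, an adhesion molecule, went the other way, with a median of 2.80 against 4.19 CPM (-0.54, edgeR adjusted p = 0.216).

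The 17 secreted factors had a median of 0.07 and no call, with 4 higher and 0 lower at an unadjusted p under 0.05 (all genes 7.15% and 6.22%). That median was 0.04 without knock-in female 4 and 0.13 without knock-in male 7, the extremes of the runs without 1 library. Those 4 were Npy, a peptide of interneurons (0.29, edgeR adjusted p = 0.300), Ccn1, a matrix protein and SRF target (0.48, edgeR adjusted p = 0.329), Inhba, the activin subunit (0.41, edgeR adjusted p = 0.351), and Ptgs2, the inducible cyclooxygenase (0.29, edgeR adjusted p = 0.355). Bdnf, the neurotrophin most often tied to Npas4, was not among them. It ranged from 27.3 to 55.8 CPM in high and from 35.0 to 51.9 CPM in low libraries, a difference of -0.02 (SE 0.14, edgeR adjusted p = 0.967) whose sign turned without the knock-in females (0.11).

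Genes upstream of Npas4, the calcium, CREB and MAP kinase genes, had a median of 0.05 over 33 members and no call. Camk4, the nuclear calcium kinase that phosphorylates CREB, had a median of 28.2 CPM in high and 16.1 CPM in low libraries (0.67, SE 0.14, edgeR adjusted p = 0.0749, DESeq2 adjusted p = 0.0025). Its means were higher in all 4 groups. Mapk3, which encodes ERK1, had a median of 148.3 against 202 CPM (-0.37, SE 0.10, edgeR adjusted p = 0.101, DESeq2 adjusted p = 0.0159) and was lower in all 4 groups. Creb1 itself differed by 0.16 (edgeR adjusted p = 0.249) and Srf by 0.21 (edgeR adjusted p = 0.289).

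The genes next to Fosb in p lie outside the activity lists. Gabrb2, a subunit of the GABA-A receptor, ranged from 69.4 to 120 CPM in high and from 29.2 to 70.9 CPM in low libraries, so that the classes met only between 69.4 and 70.9 CPM. Its difference was 0.86 (SE 0.15, edgeR adjusted p = 0.0678). Tcf20, a chromatin-associated regulator, ranged from 99.3 to 133 CPM in high and from 71.9 to 96.2 CPM in low libraries, without overlap even across groups (0.41, SE 0.07, edgeR adjusted p = 0.0678). Sstr4, a somatostatin receptor of hippocampal neurons, ranged from 15.003 to 25.1 CPM in high and from 7.38 to 15.05 CPM in low libraries (0.76, SE 0.14, edgeR adjusted p = 0.0678). DESeq2 called all 3. Glutamate receptor and scaffold genes had a median of 0.11 (21 of 28 above 0) and no call, with Grik3 at 0.43 and Shank3 at 0.39 (edgeR adjusted p = 0.117 each).

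On the low side the 5 genes with the lowest p were Tmem198b, Rpl22l1, Atp5k, Copz1 and Tmc6, and none passed the test. Tmem198b had a median of 7.97 against 10.9 CPM and lay lower in both high libraries of all 4 groups (-0.46, edgeR adjusted p = 0.0678). Rpl22l1, a ribosomal protein paralog, differed by -0.36 and Atp5k, an ATP synthase subunit, by -0.58 (edgeR adjusted p = 0.0749 each). Copz1, a coatomer subunit, differed by -0.34 and Tmc6 by -0.52, with the same adjusted p. The mitochondrially encoded genes had a median of -0.26 (11 of 13 below 0), 5 of them lower at an unadjusted p under 0.05, as were 6.22% of all genes. The median was -0.05 without 5xFAD male 6, and -0.38 at its lowest in the runs without 1 library. In 5xFAD males it was 0.06 (7 of 13 above 0), and in the other groups it lay between -0.33 and -0.21. Their share of all counts was 5.05 to 8.24% (median 5.33%) in high and 4.03 to 9.85% (median 7.09%) in low libraries, so the ranges overlap.

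Within knock-in animals the contrast called far more genes: 136 rose (0.759%) and 3 fell (0.0167%) by edgeR. Genotype and any batch that follows the library numbers cannot be told apart in this split. The lowest p values belonged to Cntnap5c, a neurexin-family adhesion protein (1.82, SE 0.24), Palm2, a membrane-associated protein (1.79, SE 0.24), and Hs6st3, a heparan sulfate sulfotransferase (1.65, SE 0.22), each with an edgeR adjusted p of 0.00764. Gabrb2 (1.18, edgeR adjusted p = 0.0189), Sstr4 (1.06, 0.032), Map3k9 (0.92, 0.0393) and the NMDA receptor subunit Grin2b (0.93, 0.0393) also rose, as did Shank2 (0.45, 0.0393), a postsynaptic scaffold. Rps27a (-0.52, edgeR adjusted p = 0.0424) and Rpl7 (-0.45, 0.0393), both ribosomal protein genes with near-identical pseudogene copies that make their counts uncertain, and Tmem120a (-0.66, 0.036) fell. Palm2 shares its locus and strand with Pakap, so reads may be split between these 2 genes. No activity transcription factor was called among knock-in animals, and Fosb had 0.66 (edgeR adjusted p = 0.119). The count rested on single animals: 0 genes were called without knock-in female 1 or male 7, 3 without female 2 or male 6, 5 without female 4, 10 without female 5 and 65 without male 8. It also moved with the 5xFAD libraries, which share the estimate of the spread, to 4, 52 and 5 genes without 5xFAD females 3, 4 and 5 and to 262, 265 and 261 without 5xFAD males 6, 9 and 10.

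Within 5xFAD animals 0 genes were called (0.0%) by edgeR, with 929 under 0.05 before adjustment, while DESeq2 called 11 genes, 8 of them higher. At that unadjusted level 496 genes were higher (2.77%), among them 12 of the 24 activity transcription factors. The lowest p values were those of Dusp1 (0.84, SE 0.15), Fosb (1.05, SE 0.19) and, on the low side, Lars2, the mitochondrial leucyl-tRNA synthetase (-1.37, SE 0.24), each with an edgeR adjusted p of 0.30. Egr2 stood at 1.26 (SE 0.29) and Fos at 0.84 (SE 0.23), with edgeR adjusted p values of 0.864 and 0.887. Foxo1 (-0.51) and Pgls (-0.48) followed on the low side. Trbc2, a T cell receptor constant chain, also had a low p on few counts, at 0 to 3.26 CPM in high and 0.117 to 0.55 CPM in low libraries of all groups.

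No gene passed the test of the difference between the genotypes themselves (knock-in minus 5xFAD, edgeR), although 1010 genes were under 0.05 before adjustment, and DESeq2 called 3 in the positive and 1 in the negative direction. The lowest p values belonged to Kmt2d, a histone methyltransferase (0.73 in knock-in and -0.19 in 5xFAD animals), and to Akap13, a kinase anchor (0.62 and -0.35), both with an edgeR adjusted p of 0.762. Cntnap5c (1.82 and 0.32) followed with 0.839, as did Efhd2 (-0.21 and 0.52), Tmem120a (-0.66 and 0.11) and Fam3c (-0.31 and 0.17) in the opposite direction. Of the 136 genes called higher in knock-in animals, 90.4% were also above 0 in 5xFAD animals, against 47.7% of all tested genes. The median of the 136 was 0.19 in 5xFAD and 0.66 in knock-in animals.

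Transcript length moved with the classes over all groups and in knock-in animals. The 136 genes had a median exonic length of 10458 bases, against 4090 over all tested genes. With the tested genes in 5 equal bins of exonic length, the median difference over all groups went from -0.06 in the shortest bin to 0.06 in the longest, in knock-in animals from -0.13 to 0.13, and in 5xFAD animals from 0.01 to -0.01. Both knock-in groups showed it. The 5xFAD groups went opposite ways, from 0.08 to -0.04 in females and from -0.03 to 0.03 in males. Per library, the longest bin minus the shortest bin (median deviation from the group mean, log2) was 0.02 to 0.24 in the 4 high and -0.25 to -0.03 in the 4 low knock-in libraries. In 5xFAD animals the ranges were -0.23 to 0.07 in high and -0.26 to 0.17 in low libraries. The part of this tilt in the 136 calls, and in the 4 over all groups, was not tested. The 3 genes with the lowest p, Cntnap5c, Palm2 and Hs6st3, have exonic lengths of 3931, 3616 and 1708 bases, below the median of all genes, whereas Grin2b and Kmt2d, at 24842 and 19931 bases, are among the long ones.

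**Figure D4:**
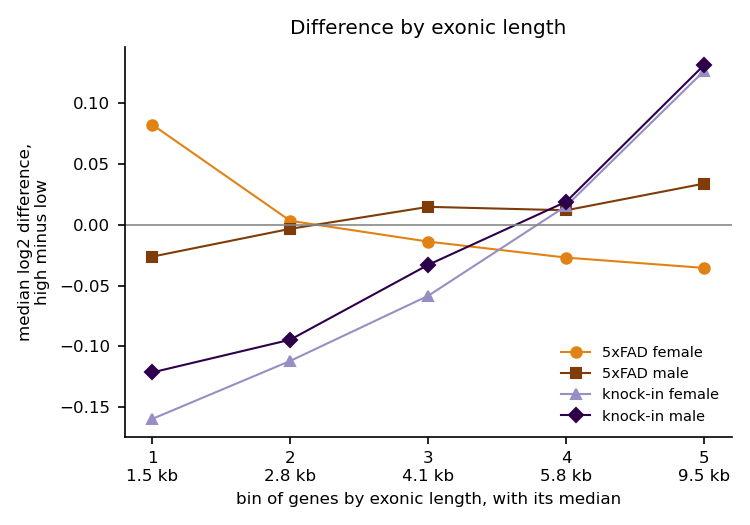
Median log2 difference (high minus low Npas4 libraries) of genes in 5 bins of exonic length, by group, with the median length of each bin under the axis. Both knock-in groups climb from the shortest to the longest bin, and the 5xFAD groups stay between -0.04 and 0.08.

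Within each sex 0 genes were called by edgeR. In females DESeq2 called 6, and 1038 had an unadjusted p under 0.05. The lowest p values were those of Grik3, a kainate receptor subunit (0.71, edgeR adjusted p = 0.605), Map3k9 (0.74, 0.844) and Lcor, a nuclear receptor corepressor (1.15, 0.844) on the high side. Wfs1, a marker of CA1 pyramidal cells (-0.73), Srd5a3 (-0.51) and Stra6 (-0.68) led the low side, each with an edgeR adjusted p of 0.844. In males DESeq2 called 30 and 1407 had an unadjusted p under 0.05, with Fosb (1.00), Gse1 (0.86) and Arhgef11 (0.52) on the high side and Sh2d1a (-1.995) and Nbdy (-0.58) on the low side, each with an edgeR adjusted p of 0.456. Yy2 had the lowest p in males (edgeR adjusted p = 0.318) on very few counts, at 0 to 2.71 CPM over the 16 libraries, so no fold is given. The difference between the sexes was called for 0 genes by edgeR (286 with an unadjusted p under 0.05) and for 1 gene by DESeq2. Behind Yy2 the lowest p values there were those of Pappa2 (2.36, females minus males) and Ehbp1l1 (0.69), and of Fhad1 (-1.14), Pcolce2 (-1.53) and Cerkl (-1.74), each with an edgeR adjusted p of 1.

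Markers of other cells, regions and states were read in the same contrast, and no gene of these lists passed the test over all groups. In bulk tissue, fewer cells of a type and less RNA per cell cannot be told apart. Pan-neuronal genes had a median of 0.04, CA1 genes of -0.05 and dentate granule genes of -0.04. Genes of inhibitory synapses and interneurons had -0.01, and CA2 and CA3 genes 0.20. The CA1 median was -0.29 in knock-in and -0.03 in 5xFAD animals. The dentate median was -0.46 in knock-in females, -0.10 in knock-in males, 0.06 in 5xFAD females and -0.14 in 5xFAD males. In the runs without 1 library it was -0.19 to 0.06. The CA2 and CA3 median was 0.47 in knock-in and 0.02 in 5xFAD animals, and it was 0.09 over all groups without knock-in male 6. Genes of neighbouring cortex had 0.03 over all groups, with 0.19 in 5xFAD (7 of 8 above 0) and -0.19 in knock-in animals (2 of 8). Their median over all groups was -0.14 to 0.09 in the runs without 1 library. Genes of neighbouring thalamus and striatum also had 0.03, with 0.03 in 5xFAD and -0.12 in knock-in animals. Wfs1 stood out in the CA1 list, at a median of 132 CPM in high and 189 CPM in low libraries (-0.54, edgeR adjusted p = 0.0947, DESeq2 adjusted p = 0.00851). Microglia genes had a median of -0.13 (8 of 10 below 0, summed level 636 to 1236 CPM in high and 796 to 1407 CPM in low libraries). Plaque-associated microglia genes also had -0.13 (13 of 16 below 0). Without the knock-in females these medians were -0.07 and -0.06. In knock-in females alone they were -0.40 and -0.38, and in knock-in males -0.08 and -0.02. In 5xFAD females they were 0.04 and -0.07, and in 5xFAD males -0.18 and -0.19. The type I interferon genes had a median of -0.28, with 13 of 14 below 0 and 7 lower in all 4 groups (11.4% of all genes), and summed to 106 to 224 CPM in high and 146.3 to 276 CPM in low libraries. Without the knock-in females that median was -0.13. Usp18, an interferon-induced protease, led this list at -0.64 (edgeR adjusted p = 0.213).

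Genes of meningeal fibroblasts had the lowest median of any list, at -0.55, with 7 of 7 below 0 and 3 at an unadjusted p under 0.05 (6.22% of all genes were lower at that level). In 5xFAD males the median was 0.19 (4 of 7 above 0), and in the other groups it lay between -0.82 and -0.44. Their summed level was 69.1 to 324 CPM in high and 113 to 485 CPM in low libraries. Mural cell genes had -0.24 and endothelial genes -0.12. Without knock-in male 6 or 7 these became -0.16 each for mural and -0.07 each for endothelial genes. The choroid plexus median of -0.19 changed sign with single libraries. It was 0.13, 0.05 and 0.03 when knock-in male 7, 5xFAD female 1 or knock-in female 4, in that order, was left out, and -0.84 without 5xFAD male 10. Without the knock-in females it was -0.07. Choroid plexus genes went opposite ways in the sexes, with medians of -1.95 and -0.36 in 5xFAD and knock-in females against 0.65 and 0.35 in 5xFAD and knock-in males. Ependymal genes had 0.56 (6 of 7 above 0), at 12.6 to 109 CPM in high and 10.2 to 56.2 CPM in low libraries. This median was 0.35 without knock-in female 1, 0.91 without 5xFAD female 3 and 0.28 without all knock-in females. In 5xFAD females it was -0.76, with 0 of 7 above 0, and in the other groups it lay between 0.53 and 0.90. Over all groups astrocyte genes (0.01), oligodendrocyte genes (0.05), heat shock genes (-0.07) and the microglial dissociation genes (-0.01) lay near the median of all genes. The genotypes differed in sign for 3 of these lists. Dissociation genes had 0.18 in 5xFAD (7 of 9 above 0) and -0.22 in knock-in animals (2 of 9), with -0.47 in knock-in females. Heat shock genes had 0.07 (9 of 11) and -0.10 (2 of 11), and oligodendrocyte genes -0.05 (3 of 9) and 0.13 (8 of 9), in that order of genotypes. The part of vessel, meningeal, ventricular and neighbouring brain tissue in the gene differences was not tested. The exception was the choroid plexus level as a covariate, with which Fosb had 0.84 and no gene was called.

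**Figure D5:**
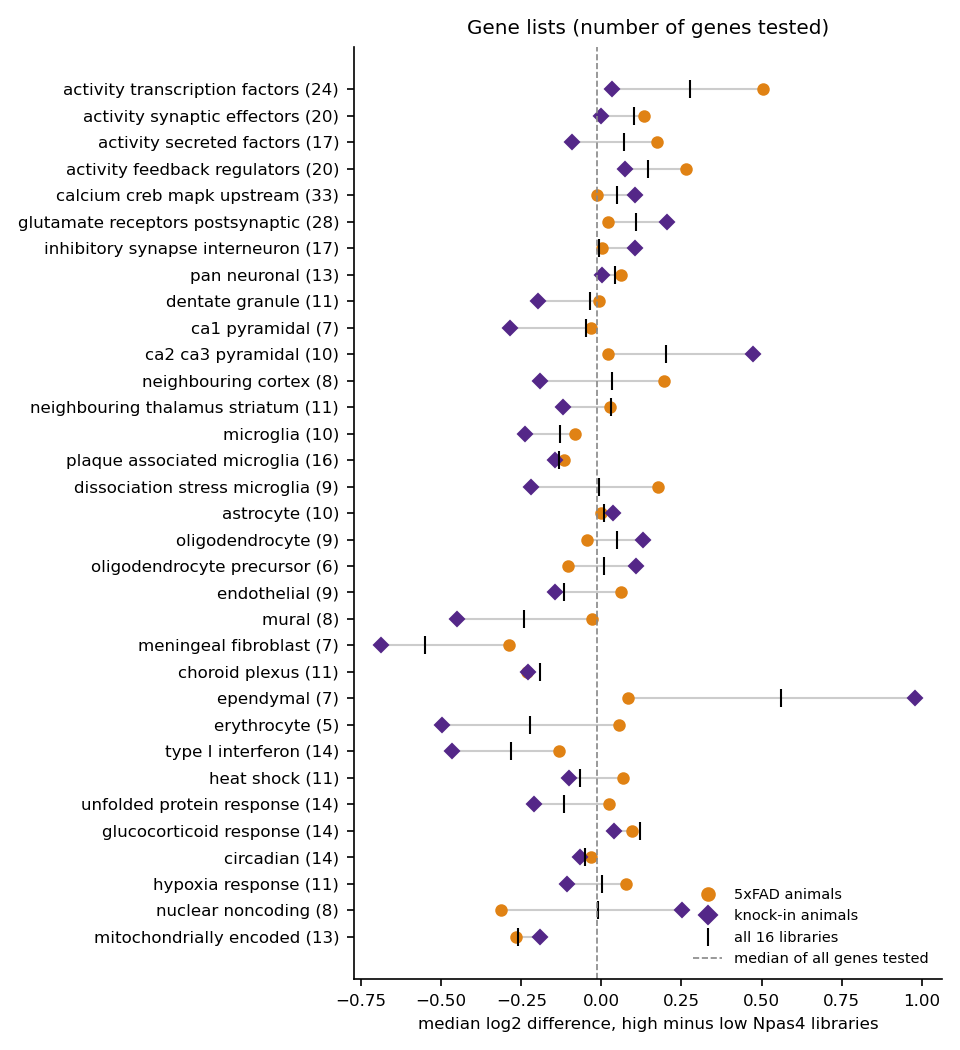
Median log2 difference (high minus low Npas4 libraries) of each gene list, with the number of genes tested. Ticks are all 16 libraries, circles 5xFAD animals, diamonds knock-in animals and the dashed line the median of all genes. Activity transcription factors lie at 0.28 over all libraries, with 5xFAD animals at 0.51 and knock-in animals at 0.03.

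Glucocorticoid response genes had a median of 0.12, with Zbtb16, a steroid-induced zinc finger factor, at a median of 44.4 against 27.6 CPM (0.65, edgeR adjusted p = 0.0947, DESeq2 adjusted p = 0.00531) and the metallothionein Mt1 at 185 against 238 CPM (-0.32, edgeR adjusted p = 0.183). Fkbp5 and Sgk1, the usual readouts of corticosterone in brain, differed by 0.12 each (edgeR adjusted p = 0.742 and 0.822). Circadian genes had a median of -0.05, with Bhlhe41 at -0.34 (edgeR adjusted p = 0.156) and Per2 at 0.27 (edgeR adjusted p = 0.220).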

How the data were processed

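Bulk RNA-seq of mouse hippocampus was used, with 1 library per animal. The authors deposited estimated counts per gene (whole numbers) and normalized values, a signal whose scaling differs by gene; their deposited variance-stabilized values were not used. The submitters' processing notes name Salmon, FastQC, Seurat, DESeq2 and build mm39, without versions or steps. The strand setting is not given in the sources used here. Of 20655 gene IDs, 20023 (96.9%) were named by GENCODE M21 (GRCm38).

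Libraries were classed by Npas4 CPM within group, and Npas4 was left out of the tested table. The test was edgeR 4.0.16 under R 4.3.3 on the deposited counts (TMM scaling, filterByExpr with a minimum of 10 counts, robust quasi-likelihood test, 11 residual degrees of freedom, Benjamini-Hochberg threshold 0.05). Contrasts within genotype and within sex came from nested models over the same 16 libraries. DESeq2 1.42.0 and limma 3.58.1 (voom, and log2(value + 1) of the deposited signal with a mean of at least 10) were alternatives, with other scalings, filters, covariates and left-out libraries. The alternatives without the knock-in females and on the deposited signal were chosen after seeing the data, and the filter of the latter replaced the one of a first run, with a similar count of calls. Library totals were compared by exact permutation in Python 3.11.15 with scipy 1.17.1. The edgeR step was tested on simulated data. Depth was 17.28 to 25.2 M counts (mega).

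The classes, gene lists and comparisons were chosen with earlier results of these data known. Since 1 gene of the same libraries set the classes, the tests describe which genes vary with it within groups. Genes named are those called with a gene symbol, the 5 with the lowest p per direction where fewer passed, each tested activity transcription factor, the 4 lowest-p members at most of any other list, and the 3 with the lowest p per direction in the other comparisons. Promoters are from RefSeq.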

Additional observations from a re-analysis of the deposited data

Results flagged for a closer look

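Within the classes of 8 libraries, 3 levels stood apart by Dixon's test at the 95% level, out of 94 checks over 47 genes, of which chance flags about 1 in 20. B230209E15Rik, called higher in the high-Npas4 libraries, had 18.8 CPM in the low 5xFAD male 6, above the other 7 low libraries (10.5 to 13.5 CPM). Gadd45b had 8.84 CPM in the low knock-in male 8, below the other low libraries (11.1 to 13.2 CPM). Nfil3, a basic leucine zipper repressor, had 8.17 CPM in the low 5xFAD female 5, below the other low libraries (11.3 to 14.6 CPM).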

How the results depend on the processing

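The 4 genes called over all groups became 0 with a filter of 1 CPM in at least 8 libraries, with the choroid plexus level as covariate, with no group block, with limma-voom and without the knock-in females. They became 448 with DESeq2 and 154 with the deposited normalized values, and the runs without 1 library gave 0 to 173. With the Npas4 level as a number over all 19 libraries 1 gene was called (Hpcal1, lower). The call set was the same without a low-count filter, with scaling by library size or by DESeq2 size factors, and with classes by TMM-scaled CPM. With the noncoding level as covariate it was also 4, with Tcf20 in place of Fosb. Same-numbered libraries of the genotypes deviated together with r between -0.21 and 0.13, so the numbers were not taken to pair them, and the fit with a replicate block, which leaves 3 residual degrees of freedom, called 1 gene (Gm28048). The 139 genes called in knock-in animals became 286 with the noncoding level as covariate, 241 from that genotype alone and 649 with DESeq2, and 0 to 265 in runs without 1 library. DESeq2 called 11 genes in 5xFAD animals, 4 for the genotype difference, 6 in females, 30 in males and 1 for the sex difference, where edgeR called 0. The males alone gave 1 gene. Runs without 1 library gave 0 to 1 gene in 5xFAD animals, 0 to 2 for the genotype difference, 0 to 1 in males and 0 to 1 for the sex difference.

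Of 64 genes recomputed over all groups, 8 had a sign that turned in at least 1 alternative, and none of these was called by edgeR. Nr4a2 (-0.18) was 0.056 and Fkbp5 -0.080 with the replicate block. Bdnf was 0.11 without the knock-in females, 0.062 with Npas4 as a number, 0.20 with the deposited values and -0.15 to 0.070 without 1 library. Sgk1 was -0.023 with Npas4 as a number and -0.025 to 0.23 without 1 library. Ier5 was -0.000103 with the choroid plexus covariate, -0.0066 with the deposited values and -0.045 to 0.18 in runs without 1 library. Atf3 was 0.18 without the knock-in females, 0.053 with Npas4 as a number and -0.15 to 0.11 without 1 library. Crem was 0.046 without the knock-in females, 0.35 with the deposited values and -0.10 to 0.013 without 1 library, and Jun was -0.12 to 0.0071 without 1 library. Fosb kept its direction in all 30 alternatives (0.59 to 1.03) and its call in 10, and Map3k9 kept its direction (0.60 to 0.98) and its call in 11. The cause of these changes was not tested. Npas4 counts of 139 to 809 limit how well libraries can be ranked, most of all among the knock-in females.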

Other observations

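Olig1, a transcription factor of oligodendrocyte precursors, was lower in both high-Npas4 libraries of all 4 groups, at a median of 132 CPM against 166 CPM (-0.32, SE 0.08, edgeR adjusted p = 0.0947). Gpr17, a receptor of cells that start to differentiate from these precursors, had a median of 47.1 against 38.6 CPM (0.32, SE 0.08, edgeR adjusted p = 0.101). DESeq2 called both, in opposite directions. The list of 6 precursor genes had a median of 0.01.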
